A study of Homo sapiens with 9 samples.

Results

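The comparison of JQ1 with vehicle in Huh7 cells asks which transcripts were higher or lower after inhibition of the BET bromodomain proteins. It used 6 of the 9 RNA sequencing libraries of the series, 3 from cells given vehicle and 3 from cells given 0.5 uM JQ1 for 48 h. All 6 came from Huh7, an established human hepatocellular carcinoma line grown in serum-containing medium, and were made from total RNA. The labels do not name the vehicle, and nothing in them ties a group's 3 libraries to 3 cultures. Every p-value below thus reflects library-to-library spread alone, and that spread may be technical. The genes compared were those with at least 1 TPM (a share of the library's transcripts, corrected for transcript length) in at least 3 of these 6 libraries, 13054 of the 27800 symbols in the deposited table. The other 3 libraries came from cells treated with FIDAS-5, an inhibitor of the methionine adenosyltransferase MAT2A, at 5 uM for 48 h. They entered the fit for its estimate of spread and are set beside JQ1 near the end.

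BET proteins are readers of acetylated histones that gather at promoters and enhancers and help RNA polymerase II leave its pause site, in part through the kinase P-TEFb. JQ1 fills the acetyl-lysine pocket of their bromodomains and so releases them from chromatin. In many cancer cells BET inhibition is known for lowering MYC and for raising HEXIM1, the protein that holds P-TEFb inactive in the 7SK particle. Liver cancer cells such as Huh7 keep much of the secretory programme of hepatocytes, including plasma proteins, clotting factors and lipoproteins, and share some fetal liver genes such as AFP and GPC3.

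Depth is unknown, because TPM keeps none. The share of TPM on protein-coding genes was 27.6 to 34%, and small structural and microRNA symbols held 42.4 to 58.1% in vehicle and 32.4 to 38.7% with JQ1. Symbols not matched to RefSeq held 26.6, 9.09 and 18.8% in vehicle replicates 1, 2 and 3, and 32.8, 30.5 and 33.1% in those of JQ1. Across genes, Pearson correlations of log2(TPM + 1) were 0.9535 to 0.9735 among vehicle libraries, 0.952 to 0.9765 among JQ1 libraries and 0.8659 to 0.9005 between the groups. Libraries within each group differed along transcript GC content. Departures from the JQ1 mean had Spearman correlations with GC across genes of -0.67, -0.356 and 0.657 in JQ1 replicates 1, 2 and 3 (genes are not independent replicates, and departures from a mean of 3 balance). In vehicle they were 0.389, -0.274 and -0.142, and with FIDAS-5 they were -0.514, -0.22 and 0.568. The label of a hepatic line was checked against markers: the 11 hepatocyte markers summed to 4859 to 5935 TPM in vehicle libraries and to 9471 to 13835 TPM under JQ1. They did not move as a set, since by the test described below 6 of the 11 rose and 4 fell. Of the leukocyte markers 7 of 11 were under 1 TPM in all 6 libraries, with MS4A1, NKG7 and CD163 listed at 0, as were 7 of 9 fibroblast markers (DCN listed at 0), 6 of 7 endothelial markers (VWF and CDH5 listed at 0) and 4 of 8 cholangiocyte markers (KRT7 and AQP1 listed at 0). The leukocyte markers summed to 116 to 142 TPM in vehicle and 19.2 to 28.2 TPM under JQ1. In vehicle almost all of that was lysozyme, LYZ, whose mean fell from 113 to 12.4 TPM. The fibroblast sum went from 9.27 to 9.69 TPM in vehicle to 3.72 to 6.01 TPM under JQ1, the endothelial sum from 6.61 to 9.91 TPM to 1.39 to 1.69 TPM, and the cholangiocyte sum from 27.6 to 33.1 TPM to 32 to 48.6 TPM. All 6 libraries came from the Huh7 line, so these sums give levels of the listed genes and do not count other cell types. In bulk RNA, fewer cells of a type and less RNA per cell cannot be told apart.

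In what follows a gene rose or fell when limma's test gave a Benjamini-Hochberg adjusted p under 0.05 over all 13054 genes, and each log2 fold change is JQ1 minus vehicle on log2(TPM + 1). With JQ1, 2580 genes rose (19.8% of those tested) and 2526 fell (19.4%), and the median over all genes was 0.00. By at least 2-fold, 935 rose (7.16%) and 1004 fell (7.69%), and the counts at 4-fold or more were 95 and 126. The 3 JQ1 libraries lay above all 3 vehicle libraries in 25.1% of genes and below them in 25.9%. These shares are the background against which each list is read, and they move with the settings. After a trend along transcript GC was subtracted (GC trend removed), 3365 of the 12573 genes with a GC value rose and 3505 fell. Without JQ1 replicate 3, 3128 genes rose and 2148 fell. List counts under those settings are to be read against these numbers. EPHX1, the microsomal epoxide hydrolase that detoxifies reactive epoxides, shows how narrow the spread could be. It was at 54.1, 49.6 and 52 TPM under vehicle, against 425, 430 and 433 TPM under JQ1. The groups lay far apart, and the fitted difference was 3.02 on the log2 scale (SE 0.12, limma adjusted p = 2.72e-06). The plot of level against change shows called genes in both directions across most of the range of expression.

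**Figure D1:**
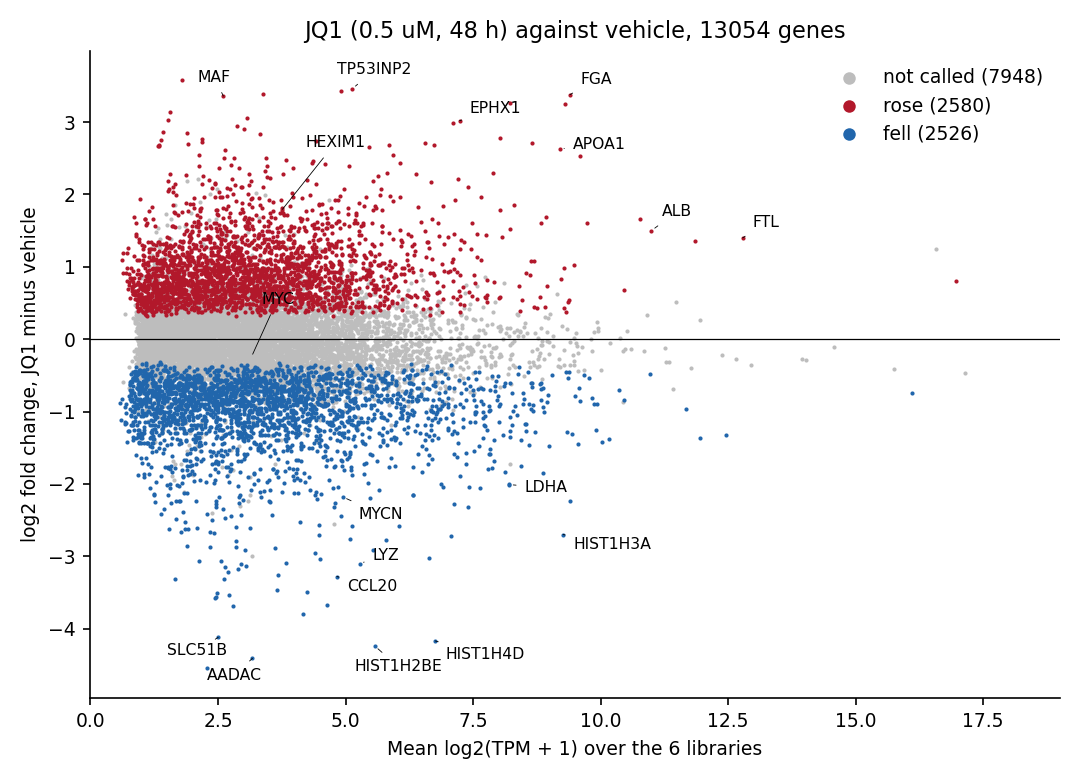
Each point is 1 of 13054 genes, with its mean log2(TPM + 1) over the 3 vehicle and 3 JQ1 libraries on the x axis and its log2 fold change on the y axis. Red points rose (2580), blue points fell (2526) and grey points were not called. FGA, APOA1, ALB and FTL rose at high levels, while HIST1H3A and LDHA fell there and MYC lay among the genes that were not called.

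Of 26 tested genes of the BET and P-TEFb list 6 rose and 3 fell (median 0.11), against 19.8% and 19.4% of all genes. The number that rose was 3 without JQ1 replicate 2, 4 without JQ1 replicate 1 or vehicle replicate 2 or 3, and 9 without JQ1 replicate 3. HEXIM1, on chromosome 17 (45148475 to 45152099, GRCh38), was at 6.08, 6.33 and 6.06 TPM under vehicle, against 26.8, 24.7 and 18.4 TPM under JQ1. Every JQ1 library was above every vehicle library, with JQ1 replicate 3 the lowest (log2 fold change 1.75, SE 0.18, adjusted p = 0.000118). BRD2, a BET protein that holds acetylated histones, was at 21, 15 and 16.5 TPM under vehicle, against 34.2, 34.2 and 32.6 TPM under JQ1. The increase was 0.92 (adjusted p = 0.00286). A smaller one of 0.48 in BRD3 (adjusted p = 0.0247) lost its call after subtraction of a GC trend (adjusted p = 0.135) and without JQ1 replicate 1 or 2 or vehicle replicate 2 or 3 (adjusted p = 0.0585 to 0.0906). CDK9, the kinase of P-TEFb, was at 14.2, 10.9 and 11.6 TPM under vehicle, against 20.8, 19.2 and 18.8 TPM under JQ1, and rose by 0.64 (adjusted p = 0.00664). Its cyclins did not pass the test: CCNT1 had a log2 fold change of -0.39 and CCNT2 of -0.00. Among the partners of HEXIM1 in the 7SK particle, LARP7 (-0.23) and the capping enzyme MEPCE (0.03) were not called either. The elongation factor SUPT5H rose by 0.50 (adjusted p = 0.0636 without JQ1 replicate 2), whereas the pausing factors NELFA and NELFCD fell by 0.46 and 0.59. AFF4, a scaffold of the super elongation complex, was high in JQ1 replicates 1 and 2 only. It was at 7.88, 5.89 and 7.81 TPM under vehicle, against 18.5, 14.3 and 6.89 TPM under JQ1 (adjusted p = 0.153, and 0.0189 without JQ1 replicate 3), and AFF1 had 0.81 (adjusted p = 0.0798, and 0.0186 without it). AFF4 was called higher in 5 of 21 alternatives and AFF1 in 7. MLLT3 (0.39) was not called, but had 0.65 without JQ1 replicate 3 (adjusted p = 0.0302) and 0.56 after subtraction of a GC trend (adjusted p = 0.00177). MLLT1 (0.53) and ELL (0.35) were called only without vehicle replicate 1 (adjusted p = 0.0325 and 0.0471), and ELL also with no filter (adjusted p = 0.0399). Their partner ELL2 (0.11), the second inhibitor HEXIM2 (0.19) and the pausing factors NELFB (0.11), NELFE (-0.13) and SUPT4H1 (0.08) were not called. Of the BET partners ATAD5, which unloads the replication clamp, fell by 0.50. That call was lost with the GC trend removed (-0.33, adjusted p = 0.0832) and without FIDAS-5 replicate 2, JQ1 replicate 2 or 3 or vehicle replicate 1 or 3 (adjusted p = 0.0535 to 0.119). NSD3 (-0.61), JMJD6 (-0.38) and CHD4 (-0.22) did not pass. NSD3 was called lower in 6 alternatives, among them the fit without JQ1 replicate 1 (-0.78, adjusted p = 0.0411), and both NSD3 (-0.44, adjusted p = 0.0014) and JMJD6 (-0.50, adjusted p = 0.009) with the GC trend removed. The RNA of the particle, RN7SK, named after its values were seen, was at 148749, 191380 and 171170 TPM under vehicle, against 106476, 123207 and 138367 TPM under JQ1. These groups did not overlap, but the difference missed the threshold (log2 fold change -0.47, adjusted p = 0.0515). POLR2A, the largest subunit of RNA polymerase II, ranged widely in vehicle (79.6, 17.5 and 41.1 TPM) and little with JQ1 (112, 114 and 113 TPM). Its rise of 1.51 (adjusted p = 0.0327) was lost without any JQ1 library or without vehicle replicate 2 or 3 (adjusted p = 0.0533 to 0.0814) and with no filter (adjusted p = 0.074).

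A set of 14 genes that BET inhibitors are known to move in other cell types was listed, and 9 of them were tested. Of 5 reported to rise, SERPINI1 (1.60), ZCCHC24 (1.63), HEXIM1 and the polyadenylated histone gene HIST2H2BE (0.82) rose and HIST1H2BK did not (-0.17). Of 9 reported to fall 4 were tested, as CCND2, BCL2, IL6, CCL2 and IL7R missed the filter. The transcription factors FOSL1 (-1.36) and E2F2 (-1.30) fell. CDK6 had -0.75 and MYC -0.26, and neither was called. With the GC trend removed 4 of the 9 tested genes rose and 5 fell.

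Within the MYC network MYCN fell and MYC was not called. Of 23 tested members 5 rose and 8 fell (median -0.26), against 19.8% and 19.4% of all genes. Of these members 2 to 3 rose without JQ1 replicate 1 or 2, vehicle replicate 2 or 3, or FIDAS-5 replicate 3. MYC was at 9.39, 8.26 and 8.43 TPM under vehicle, against 6.83, 8.06 and 6.49 TPM under JQ1. All 3 JQ1 libraries were below vehicle, but the difference missed the threshold (log2 fold change -0.26, SE 0.17, adjusted p = 0.256). After the GC trend was removed MYC was called lower (-0.45, adjusted p = 0.00823). MYCN, its paralogue, on chromosome 2 (15940550 to 15947004), was at a higher level in these cells: 82.1, 56.8 and 58 TPM under vehicle, against 13.1, 14.4 and 13 TPM under JQ1. It fell by 2.18 (SE 0.16, adjusted p = 2.96e-05). Of the MAX partners that compete with MYC, MXD4 was at 9.97, 5.69 and 8.94 TPM under vehicle, against 31.2, 35.5 and 34.8 TPM under JQ1 and rose by 1.95, whereas MXI1 fell by 1.22. The glucose-sensing relative MLXIPL rose by 1.96. MXD1 (0.78, adjusted p = 0.0486) and MLXIP (0.91, adjusted p = 0.0427) were called near the threshold, and lost their calls in 11 and 10 of 21 alternatives. Textbook MYC targets that fell included the lactate dehydrogenase LDHA (-2.01), the nucleolar methyltransferase FBL (-1.09), CDK4 (-0.73) and NPM1 (-0.77). ODC1, the first enzyme of polyamine synthesis and also a textbook MYC target, rose by 0.72 (adjusted p = 0.0148; 0.0521 without vehicle replicate 3).

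**Figure D2:**
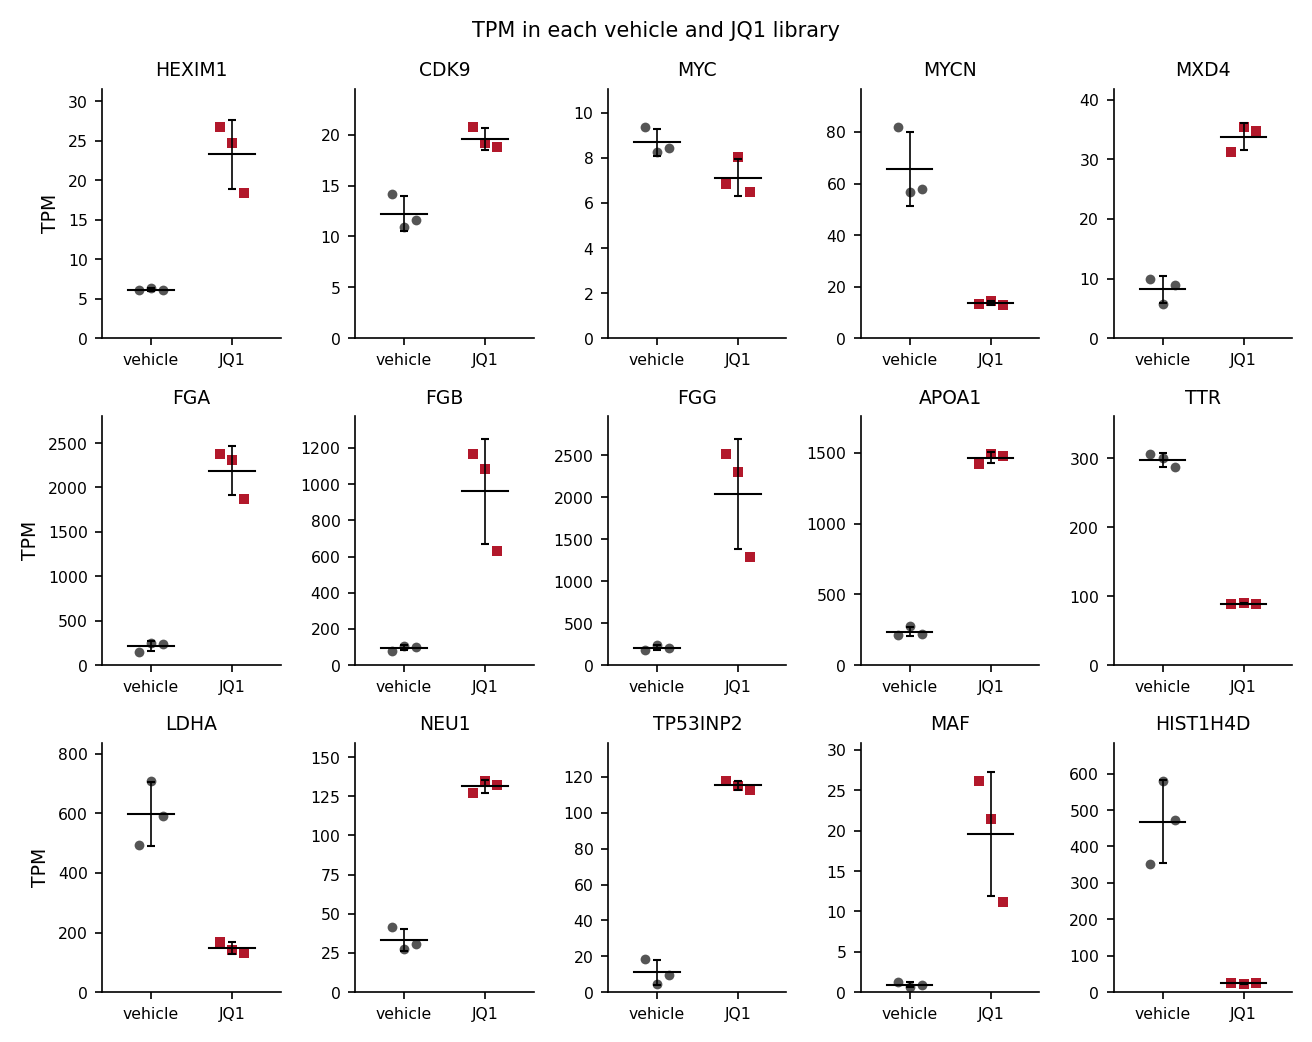
TPM of 15 genes in each vehicle (grey circles) and JQ1 (red squares) library, in replicate order, with the group mean (line) and SD (bar, n = 3); each y axis starts at 0. The MYC groups lie close together, whereas in HEXIM1, MYCN, the 3 fibrinogen genes and HIST1H4D they are far apart, and JQ1 replicate 3 is lowest for MAF, FGB and FGG.

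Ribosome biogenesis genes fell in 38 of 53 cases and none rose (median -0.76), against 19.4% of all genes that fell. The count was 33 without JQ1 replicate 3, when 2148 of all genes fell, and 45 with the GC trend removed, when 3505 did. The falls reached each step of assembly. Among proteins that guide RNA modification, GAR1 fell by 1.26, DKC1 by 0.89 and NHP2 by 0.83. FBL was at 144, 173 and 156 TPM under vehicle, against 68, 77.7 and 73.9 TPM under JQ1. In the small subunit processome UTP20 fell by 1.59, UTP14A by 1.41 and UTP18 by 1.32. Among large subunit factors RRS1 fell by 1.54 and NOP16 by 1.53. NOP16 was at 14.5, 18.5 and 14.3 TPM under vehicle, against 4.94, 4.88 and 4.48 TPM under JQ1 (adjusted p = 6.52e-05). POLR1B, the second largest subunit of RNA polymerase I, fell by 1.11, while the largest, POLR1A (-0.03), and the promoter factor UBTF (-0.02) were not called. Small nucleolar RNAs, a class counted after its values were seen, were lower as well: of 308 tested 92 fell (29.9%) and 4 rose (1.3%), with a median of -0.61. In the box C/D family (SNORD) 55 of 176 fell and 1 rose, and in the box H/ACA family (SNORA) 37 of 132 fell and 3 rose. Of 19 SNHG symbols, the long host transcripts of such RNAs, 8 fell and 1 rose. The RNA components of RNase P (RPPH1, -1.37), of telomerase (TERC, -1.80) and of RNase MRP (RMRP, -0.75) also fell. TERC was at 292, 574 and 413 TPM under vehicle, against 105, 114 and 134 TPM under JQ1. In contrast 2 nuclear long noncoding RNAs rose, both named after their values were seen. MALAT1, a resident of nuclear speckles, was at 47.7, 43.7 and 50.5 TPM under vehicle, against 273, 197 and 188 TPM under JQ1 (log2 fold change 2.17, adjusted p = 0.000188), and NEAT1, the scaffold of paraspeckles, rose by 1.98. Of 36 translation factors and ribosomal proteins 6 fell and 3 rose (median -0.26). The number that fell was 13 with the GC trend removed and 11 without vehicle replicate 1. EIF5A fell by 1.18 and EEF2, which moves the ribosome along the message, rose by 0.83. Of 36 respiratory chain and mitochondrial ribosome genes 12 fell and 3 rose (5 without vehicle replicate 2), and 9 of the 10 mitochondrial ribosome genes fell. MRPL11 was at 245, 271 and 218 TPM under vehicle, against 57.4, 60.4 and 57.7 TPM under JQ1 (-2.04).

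Genes of DNA replication and mitosis fell together. Of 44 replication genes 29 fell and 1 rose (median -0.88), and of 48 mitosis genes 35 fell and none rose (median -0.79). Without JQ1 replicate 3 the numbers that fell were 26 and 31. In the replicative helicase 11 of 12 tested genes fell. GINS1 was at 27.7, 36.2 and 28.2 TPM under vehicle, against 10.5, 8.05 and 8 TPM under JQ1 (-1.69), and MCM3 fell by 1.38. The polymerase subunit POLE2 fell by 1.68, whereas the catalytic subunit POLE rose by 0.62, a call lost without JQ1 replicate 2 or vehicle replicate 2 or 3 (adjusted p = 0.0537 to 0.0642). PCNA (-0.29) and the thymidine kinase TK1 (0.11) were not called. In mitosis the kinases AURKA (-1.54) and PLK1 (-1.48), the cyclin CCNA2 (-1.67) and securin, PTTG1, fell. PTTG1 was at 138, 205 and 167 TPM under vehicle, against 73.5, 72.4 and 47.1 TPM under JQ1. CDK1 (-0.59), MKI67 (-0.61) and TOP2A (-0.72) did not pass the test. Of 21 G1 regulators 9 fell and 2 rose. Cyclin D1, CCND1, fell by 1.29 and CDK2 by 0.87. The inhibitor CDKN2A also fell, by 1.21, and CDKN1A (-0.31) and CDKN1B (0.16) were not called. CDKN2D (1.07) and CCND3 (0.90) rose.

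Histone genes split between the list of clustered genes and the list of replication-independent ones. Clustered, replication-dependent histone genes carry near-identical copies, so the level of each is uncertain. Of 59 tested 50 fell and 2 rose (median -1.48), and 50 fell also without JQ1 replicate 3. HIST1H4D, an H4 gene on chromosome 6 (26188710 to 26189112), was at 352, 581 and 472 TPM under vehicle, against 24.7, 23.6 and 25.2 TPM under JQ1. It fell by 4.17 (SE 0.20, adjusted p = 4.47e-06), and the H2B genes HIST1H2BE and HIST1H2BM fell by 4.24 and 3.68. HIST1H3A, an H3 gene, fell from 1575 to 241 TPM. In the linker family HIST1H1B fell by 3.02 and HIST1H1C had 0.11. Of 9 replication-independent histone genes, which are mostly made through the cell cycle with polyadenylated messages, 5 rose and 1 fell (median 0.61). The linker histones H1FX and H1F0 rose by 1.53 and 1.15, and H2AFX by 1.02. H1FX was at 14.2, 13.3 and 13.3 TPM under vehicle, against 41.7, 42.9 and 38.8 TPM under JQ1. The macro-histone H2AFY2 fell by 1.42. The rise of H3F3B (0.61, adjusted p = 0.0461) was lost in 12 of 21 alternatives.

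The 2 histone promoters below are shown because HIST1H4D and HIST1H2BM were among the 15 largest falls named. Each is the stretch of 250 bases before the RefSeq start, 5′ to 3′ on the gene's strand (GRCh38.p14). Capitals mark the letters TATAAA or CCAAT on either strand in HIST1H2BM, and TATAAA in HIST1H4D. The stretches lie at chr6:26189113-26189362 (minus strand) and chr6:27814772-27815021 (plus strand).
HIST1H4D: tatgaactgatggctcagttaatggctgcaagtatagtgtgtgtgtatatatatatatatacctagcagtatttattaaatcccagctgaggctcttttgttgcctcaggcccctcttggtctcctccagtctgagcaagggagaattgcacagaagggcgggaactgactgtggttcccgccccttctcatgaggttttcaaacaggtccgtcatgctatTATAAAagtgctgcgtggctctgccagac
HIST1H2BM: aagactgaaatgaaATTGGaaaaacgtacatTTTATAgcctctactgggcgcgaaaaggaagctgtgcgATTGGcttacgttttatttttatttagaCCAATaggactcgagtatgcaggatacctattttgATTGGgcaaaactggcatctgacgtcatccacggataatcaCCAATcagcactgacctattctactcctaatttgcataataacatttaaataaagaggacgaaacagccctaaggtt
HIST1H2BM holds 6 such matches and HIST1H4D holds 1. The only TATAAA match in HIST1H2BM is on the opposite strand, near the end of the window far from its start. The neighbouring HIST1H2AJ spans 27814302 to 27814777 and reaches into that window. Counts on either strand may thus include letters that lie nearer to another gene. Of 49 promoters of the clustered histone list in this table, 42 hold CCAAT (85.7%) and 33 hold TATAAA (67.3%) on either strand. Among all 27305 first-listed promoters of the same length the shares are 33% and 11.1%. These matches describe letters and do not show a bound site.

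The fibrinogen genes, which encode the chains of the clot protein and sit next to each other on chromosome 4, rose together. FGA was at 152, 247 and 242 TPM under vehicle, against 2381, 2313 and 1874 TPM under JQ1. FGB was at 80.7, 107 and 102 TPM under vehicle, against 1169, 1083 and 631 TPM under JQ1. FGG was at 176, 239 and 204 TPM under vehicle, against 2519, 2299 and 1289 TPM under JQ1. Within each gene the lowest JQ1 library, replicate 3, was still several-fold above the highest vehicle library. The log2 fold changes were 3.38 (SE 0.21, adjusted p = 1.34e-05) for FGA, 3.26 (SE 0.26) for FGB and 3.25 (SE 0.28) for FGG. The stretches of 250 bases before their RefSeq starts are shown because the genes moved together. They lie at chr4:154590743-154590992 (minus strand, FGA), chr4:154562730-154562979 (plus strand, FGB) and chr4:154612657-154612906 (minus strand, FGG) in GRCh38.p14. Capitals mark the letters GTTAAT on either strand.
FGA: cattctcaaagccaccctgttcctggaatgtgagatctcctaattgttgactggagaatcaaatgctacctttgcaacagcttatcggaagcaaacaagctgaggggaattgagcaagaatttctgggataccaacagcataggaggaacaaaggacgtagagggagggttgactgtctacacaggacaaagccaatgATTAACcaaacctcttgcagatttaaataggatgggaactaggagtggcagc
FGB: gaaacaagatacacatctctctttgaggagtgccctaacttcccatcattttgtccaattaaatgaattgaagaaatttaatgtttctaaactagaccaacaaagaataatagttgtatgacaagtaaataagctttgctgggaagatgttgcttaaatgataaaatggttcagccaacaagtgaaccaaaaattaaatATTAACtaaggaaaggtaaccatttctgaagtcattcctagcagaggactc
FGG: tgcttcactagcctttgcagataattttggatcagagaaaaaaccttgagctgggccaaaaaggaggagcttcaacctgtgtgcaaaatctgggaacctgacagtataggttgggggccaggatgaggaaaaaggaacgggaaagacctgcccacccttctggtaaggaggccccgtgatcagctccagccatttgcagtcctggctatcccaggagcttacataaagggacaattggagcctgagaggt
FGA and FGB hold 1 match each and FGG none in this window. Of 17 promoters of the coagulation list 4 hold the letters (23.5%), against 6.22% of all 27305 promoters and 3.44% of the 9767 promoters of tested genes. Among genes that rose the share was 2.36% and among genes that fell 4.65%.

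The rest of the coagulation system moved in both directions. Of 19 tested genes, fibrinogens included, 9 rose and 9 fell (median 0.27; with no filter -0.24 and with protein-coding genes rescaled -0.52). Factor X, F10, was at 6.99, 7.1 and 6.89 TPM under vehicle, against 27.7, 28 and 27 TPM under JQ1 and rose by 1.84, as did factor XII, F12, by 1.17. Prothrombin, F2, fell by 1.38 and factor VII, F7, by 0.64. Of 7 anticoagulants and serpins 5 fell and 2 rose. Those that fell included tissue factor pathway inhibitor, TFPI, by 2.14, antithrombin, SERPINC1, by 1.65 and protein S, PROS1, by 1.30. SERPINA5, the protein C inhibitor, rose by 1.98. The fibrinolysis genes were among the steepest. SERPINF2, the main plasmin inhibitor, was at 46.1, 39.7 and 38.4 TPM under vehicle, against 257, 282 and 272 TPM under JQ1 (2.68, adjusted p = 4.34e-06). CPB2, which also slows clot breakdown, was at 19, 25.8 and 20.9 TPM under vehicle, against 1.86, 2.2 and 1.06 TPM under JQ1 (-3.10, adjusted p = 2.08e-05). These 2 inhibitors of fibrinolysis went opposite ways.

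With every library kept, complement and acute phase genes fell more often than they rose. Of 19 complement genes 8 fell and 5 rose (median -0.28). C5 fell by 1.75, C3 by 1.23 and the inhibitor subunit C4BPA by 2.42, from 5.08 to 0.131 TPM. CLU (2.30) and SERPING1 (1.41), which restrain complement, rose, as did the membrane inhibitor CD59 (1.57). C2, whose rise was 0.44, lost its call with the GC trend removed and without JQ1 replicate 1 or 2 or vehicle replicate 3 (adjusted p = 0.0566 to 0.0879). Of 20 acute phase and interleukin 6 pathway genes 8 fell and 3 rose (median 0.14). Without JQ1 replicate 3, 9 rose and 8 fell, and with the GC trend removed 8 rose and 9 fell. The median changed sign under 5 of 21 alternatives. ORM1, an orosomucoid, was at 62.3, 70.4 and 64.4 TPM under vehicle, against 3.29, 4.81 and 3.41 TPM under JQ1. It fell by 3.80 and its near-identical neighbour ORM2 by 3.06, so their separate levels are uncertain. Hemopexin, HPX (-1.44), antichymotrypsin, SERPINA3 (-1.54), and ceruloplasmin, CP (-1.76), fell too. SERPINA1, alpha-1-antitrypsin, rose from 983 ± 122 to 3101 ± 96 TPM (SD, n = 3), and the transcription factor STAT3, which relays the interleukin 6 signal, rose by 1.13.

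Among plasma carriers, 4 of 13 rose and 4 fell. Albumin, ALB, was at 953, 1591 and 1184 TPM under vehicle, against 4605, 4301 and 2040 TPM under JQ1 (1.50, SE 0.36, adjusted p = 0.00991). AMBP rose by 1.69. Transthyretin, TTR, a carrier of thyroid hormone and retinol-binding protein, had tight libraries: 307, 300 and 287 TPM under vehicle, against 88.9, 89.6 and 89.3 TPM under JQ1. It fell by 1.73 (adjusted p = 1.53e-05), as did AHSG by 1.33. The fetal albumin relative AFP was at 1382, 1899 and 1647 TPM under vehicle, against 2069, 1954 and 810 TPM under JQ1. Its groups overlapped and it was not called (-0.13).

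Lipoprotein genes rose in 8 of 15 cases and fell in 3. Their median was 0.77, but 0.02 over 23 genes with no filter and 0.08 over 19 with protein-coding genes rescaled, when 9 rose and 5 fell. APOA1, the main protein of high-density lipoprotein, was at 216, 274 and 221 TPM under vehicle, against 1423, 1494 and 1479 TPM under JQ1 (2.63, adjusted p = 7.46e-06). APOE, a ligand for lipoprotein receptors, was at 40.4, 31.6 and 35.5 TPM under vehicle, against 249, 254 and 216 TPM under JQ1 (2.71). APOA2 rose by 1.61 and the phospholipid transfer protein PLTP by 1.60. APOB rose by 1.85 with a wide spread (985, 751 and 288 TPM under JQ1), and the call was lost without JQ1 replicate 1 or 2 or vehicle replicate 2 or 3 (adjusted p = 0.0525 to 0.09) and with no filter (adjusted p = 0.0582). APOM fell by 2.45, APOH by 2.91 and APOC2 by 1.19.

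**Figure D3:**
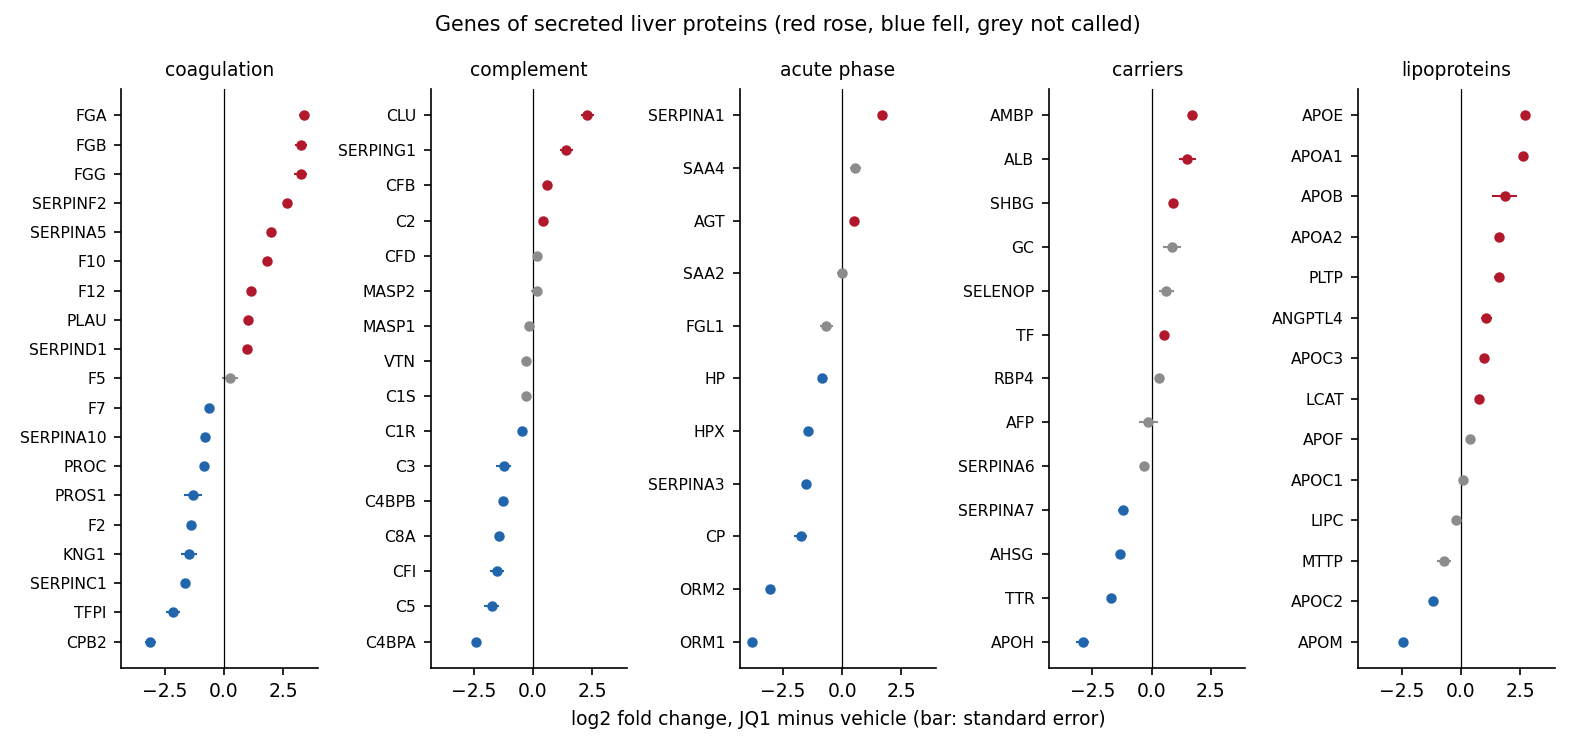
log2 fold change with its standard error for the genes of secreted liver proteins in 5 groups, each gene shown once. Red genes rose, blue fell and grey were not called; the fibrinogen genes, SERPINF2, APOE and APOA1 stand at the top and ORM1, CPB2, APOH, APOM and C4BPA at the bottom of their groups.

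Transcription factors of the liver were more often higher. Of 42 tested factors, nuclear receptors and coactivators 22 rose and 9 fell (median 0.63). The number that rose was 14 without JQ1 replicate 1 or 2, or without vehicle replicate 2 or 3. This list has a median transcript GC of 58.8%, against 49.4% over all tested genes, and with the GC trend removed 24 rose and 11 fell. MAF, a leucine zipper factor, was at 1.23, 0.615 and 0.899 TPM under vehicle, against 26.2, 21.4 and 11.2 TPM under JQ1 (3.36, adjusted p = 6.04e-05). HNF4A, a central hepatocyte factor, was at 81.7, 70.2 and 67.5 TPM under vehicle, against 138, 138 and 137 TPM under JQ1 (0.91). ONECUT1 rose by 1.72, GATA4 by 1.49 and CEBPA by 0.94. Several nuclear receptors fell: the bile acid receptor NR1H4 by 1.63, the xenobiotic receptor NR1I3 by 1.02 and the repressor NR0B2 by 1.02.

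Genes of bile acid synthesis and transport were lower in 9 of 17 cases and higher in 4. Their median was -0.82, but -0.18 over 26 genes with no filter, -0.39 over 21 with protein-coding genes rescaled and -0.54 without JQ1 replicate 3. SLC51B, a subunit of the basolateral bile acid exporter, was at 16.6, 29.1 and 24 TPM under vehicle, against 0.527, 0.238 and 0.337 TPM under JQ1 (-4.12, adjusted p = 6.1e-06). ACOX2, which shortens the bile acid side chain, fell by 2.60 and the uptake carrier SLCO1B3 by 1.35, whereas CYP27A1 rose by 1.21. FGF19, the hormone that restrains bile acid synthesis, was at 19.9, 11.9 and 14.6 TPM under vehicle, against 2.94, 2.89 and 2.09 TPM under JQ1. It fell by 2.16 while its receptor FGFR4 rose by 1.42 and its co-receptor KLB by 1.74. KLB was at 17.5, 20.6 and 19.2 TPM under vehicle, against 91.1, 80.4 and 39.4 TPM under JQ1. Drug metabolism genes split, with 8 of 38 higher and 11 lower, against 19.8% and 19.4% of all genes. Their median of 0.07 changed sign with no filter and with protein-coding genes rescaled. Beside EPHX1, the cytochrome CYP4F12 rose by 1.27. The esterase AADAC fell by 4.41, the glutathione transferase GSTM1 by 1.56 and the cytochrome CYP2J2 by 1.32. NNMT, a methyltransferase of nicotinamide, was at 2.43, 3.31 and 2.34 TPM under vehicle and was listed at 0 in every JQ1 library.

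Cholesterol genes rose in 13 of 31 cases and none fell (median 0.54). Without JQ1 replicate 3, 19 rose, and without vehicle replicate 1 there were 2 that fell. TM7SF2, a sterol reductase, was at 22.6, 21.7 and 20.7 TPM under vehicle, against 131, 158 and 147 TPM under JQ1 (2.69, adjusted p = 4.39e-06). LSS rose by 2.25, MVD by 1.61, INSIG1 by 1.38 and the transcription factor SREBF2 by 1.18. Of 26 genes of fatty acid synthesis and lipid droplets 11 rose and 6 fell. The synthase FASN rose by 1.84 and the acyltransferases DGAT1 and DGAT2 by 1.84 and 1.81. PNPLA2, the lipase that opens triglyceride stores, was at 13.9, 5.85 and 10.3 TPM under vehicle, against 53.1, 56.9 and 55.3 TPM under JQ1 (2.42), and MGLL, which completes that breakdown, fell by 1.61. Of 23 genes of fatty acid oxidation 8 rose and 2 fell. The carnitine transferase CPT1A rose by 1.51 and the peroxisomal thiolase ACAA1 by 1.60, and the carrier FABP1 fell by 1.10.

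Glycolysis and hypoxia genes fell in 18 of 29 cases and rose in 3 (median -0.60; 17 fell without JQ1 replicate 3). LDHA was at 495, 710 and 591 TPM under vehicle, against 170, 140 and 131 TPM under JQ1 (-2.01, adjusted p = 5.29e-05). PKM (-1.46), ENO1 (-1.17), ALDOA (-1.17), PGK1 (-1.09), HK2 (-1.36) and PFKFB4 (-1.71) fell as well, and GAPDH by 0.48. PFKL, the liver phosphofructokinase, rose by 1.21 as the muscle form PFKM fell by 1.30. PDK1, a kinase that inhibits pyruvate dehydrogenase, fell by 1.77. HIF1A had 0.02. Of 17 genes of gluconeogenesis, the urea cycle and amino acid breakdown 5 rose (3 without JQ1 replicate 1 or 2 or vehicle replicate 3) and 5 fell, with HAL, which breaks down histidine, at -2.22 and arginase, ARG1, at -1.66.

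Lysosome and autophagy genes rose in 36 of 58 cases and fell in 2 (median 0.75), against 19.8% of all genes that rose. The number was 38 without JQ1 replicate 3, when 3128 of all genes rose, and 40 with the GC trend removed, when 3365 did. The cholesterol carrier of the lysosome NPC2 rose by 2.30 and its membrane partner NPC1 by 1.61. Among hydrolases the sialidase NEU1, on chromosome 6 (31857659 to 31862821), was at 41.3, 27.5 and 30.9 TPM under vehicle, against 127, 135 and 132 TPM under JQ1 (1.97, adjusted p = 0.000102). The proteases TPP1 (1.78) and CTSD (1.35), the glucosidase GAA (1.77) and the activator PSAP (1.46) rose. TP53INP2, which carries LC3 from the nucleus to forming autophagosomes, was at 18.6, 4.68 and 9.66 TPM under vehicle, against 118, 115 and 113 TPM under JQ1 (3.46, adjusted p = 0.000162). The kinase ULK1 that starts autophagy rose by 1.76 and MAP1LC3B by 1.29, while GABARAP (-0.08) and BECN1 (0.30) were not called. TFEB, a master regulator of lysosomal genes, was low and fell by 0.83, and its relative TFE3 had 0.45.

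The E-box CACGTG is read by both MYC with MAX and the TFEB family. LDHA and NEU1 are shown as a called fall and a called rise that each carry it in the 250 bases before the RefSeq start, at chr11:18394313-18394562 (plus strand, LDHA) and chr6:31862822-31863071 (minus strand, NEU1) in GRCh38.p14. Capitals mark CACGTG, which reads the same on both strands.
LDHA: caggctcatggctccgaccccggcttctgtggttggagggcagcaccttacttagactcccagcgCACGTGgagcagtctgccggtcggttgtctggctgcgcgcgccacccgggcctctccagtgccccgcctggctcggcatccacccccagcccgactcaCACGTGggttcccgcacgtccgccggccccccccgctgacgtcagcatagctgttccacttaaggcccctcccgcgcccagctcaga
NEU1: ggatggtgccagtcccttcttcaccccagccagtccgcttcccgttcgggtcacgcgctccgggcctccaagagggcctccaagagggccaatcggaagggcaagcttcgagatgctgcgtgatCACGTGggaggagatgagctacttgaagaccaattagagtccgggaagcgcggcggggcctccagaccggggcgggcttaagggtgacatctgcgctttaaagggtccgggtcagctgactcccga
LDHA holds 2 copies and NEU1 holds 1. The letters occurred in 10 of 40 lysosome and autophagy promoters (25%), 6 of 44 ribosome biogenesis promoters (13.6%) and 4 of 26 glycolysis promoters (15.4%). They occurred in 6.49% of all promoters, 8.99% of those of tested genes, 9.79% of those that rose and 8.25% of those that fell.

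Stress genes fell more often than they rose. Of 40 ATF4 targets and genes of the unfolded protein response 18 fell and 5 rose (median -0.46). TRIB3, a pseudokinase induced by ATF4, was at 71.2, 30.7 and 54.7 TPM under vehicle, against 13.4, 14 and 14.1 TPM under JQ1 (-1.76). ATF4 itself fell by 0.65, XBP1 by 0.93, the folate enzyme MTHFD2 by 1.67 and the cystine transporter SLC7A11 by 1.86. SESN2 (1.05) and HERPUD1 (0.80) rose, and ASNS (0.13) and DDIT3 (0.33) were not called. Of 17 cytosolic chaperones and their factors 6 fell and 1 rose. HSPB1 was at 112, 97.6 and 99.1 TPM under vehicle, against 23.1, 24 and 22.7 TPM under JQ1 (-2.09), HSPH1 fell by 1.14, and HSPA1A (-0.05) was not called.

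Metal and iron genes rose in 11 of 20 cases and fell in 3 (median 0.64; 5 fell without vehicle replicate 2). MT2A, a metallothionein that binds zinc and copper, was at 56.6, 27.5 and 70.3 TPM under vehicle, against 373, 389 and 404 TPM under JQ1 (2.99). MT1X rose by 2.44, and MT1E, MT1F and MT1G by 1.32 to 1.53, with similar sequences that make their separate levels uncertain. The ferritin light chain FTL was at 4562, 4137 and 4345 TPM under vehicle, against 11115, 11872 and 11380 TPM under JQ1 (1.40, adjusted p = 6.33e-05), and the heavy chain FTH1 rose by 1.36. HMOX1, which releases iron from heme, rose by 1.30. NRF2 targets split, 5 of 20 higher and 6 lower (median 0.01, with either sign among the alternatives), against 19.8% and 19.4% of all genes. GPX2, a glutathione peroxidase, was at 67.7, 60.3 and 60.5 TPM under vehicle, against 3.71, 5.33 and 4.97 TPM under JQ1 (-3.50), and the synthetase GSS rose by 1.08.

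NF-kappaB targets and chemokines fell in 11 of 24 cases and 1 rose (median -0.38; 3 rose without vehicle replicate 1). CCL20, a chemokine for lymphocytes and dendritic cells, was at 66.4, 114 and 89.1 TPM under vehicle, against 10.4, 8.63 and 5.95 TPM under JQ1 (-3.28, adjusted p = 2.21e-05). CXCL5 fell by 2.47, the adhesion molecule ICAM1 by 2.44 and IL32 by 1.69. The subunits NFKB1 (-0.19) and RELA (0.45) were not called. Of 28 genes of the interferon response and antigen presentation 10 fell and 5 rose (median 0.02, with either sign among the alternatives; 8 rose without JQ1 replicate 3). OAS1 fell from 4.01 to 0.122 TPM and IFITM3 by 1.54, while STAT2 (1.23) and HLA-E (1.08) rose. The pan-leukocyte marker PTPRC was at 0.191 to 0.918 TPM over the 6 libraries. The leukocyte sum given above was almost all LYZ in vehicle, and its part in these falls was not tested.

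Of 25 tested early response genes 9 rose and 12 fell (median -0.47). Of 15 immediate early factors 7 rose and 4 fell. Among 10 feedback inhibitors of the ERK kinase pathway 8 fell and 2 rose. SPRY1 was at 26.5, 25.6 and 27 TPM under vehicle, against 3.92, 5.14 and 3.36 TPM under JQ1 (-2.43), SPRY4 fell by 2.27 and the phosphatase DUSP6 by 1.95. DUSP1 rose by 0.98. Among AP-1 factors JUND was at 33.7, 15.8 and 27.1 TPM under vehicle, against 152, 146 and 141 TPM under JQ1 (2.54), and JUN rose by 0.81, as FOSL1, JUNB (-0.96) and FOS (-0.52) fell. PHLDA1 rose by 2.50.

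Of 20 apoptosis regulators 4 rose and 2 fell (4 without vehicle replicate 1), against 19.8% and 19.4% of all genes. The BH3-only genes BMF (2.33) and BCL2L11 (1.50), which oppose survival proteins, rose and PMAIP1 fell by 1.03. The survival genes MCL1 (0.34) and BCL2L1 (0.21) were not called. Of 18 p53 targets 7 rose and 2 fell, with TP53INP1 (2.01), SESN1 (1.25) and GADD45A (1.11) highest in change and the repair gene DDB2 lower by 0.54. The call of DDB2 was lost without JQ1 replicate 1 or 2 or vehicle replicate 2 (adjusted p = 0.0565 to 0.0582). TP53INP1 was at 2.53, 2.39 and 2.49 TPM under vehicle, against 18.7, 17.3 and 6.59 TPM under JQ1.

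Of 38 matrix and adhesion genes 15 rose and 6 fell. Fibronectin, FN1, was at 225, 117 and 145 TPM under vehicle, against 1191, 1066 and 867 TPM under JQ1 (2.71). N-cadherin, CDH2, rose by 1.92 and CLDN1 by 1.52. The gap junction gene GJA1 was at 23, 24.1 and 24.5 TPM under vehicle, against 1.39, 1.11 and 0.413 TPM under JQ1 (-3.69), and the collagen crosslinker LOX fell by 2.89. The sum of fibroblast markers was lower with JQ1, as given above, but of the 2 such markers tested 1 rose and 1 fell. The part of that sum in these changes was not tested. Of 26 growth factor and insulin signalling genes 11 rose and 2 fell, with FGFR3 at 1.66 and IGF2 at 1.79. Of 26 Wnt and progenitor genes 6 rose and 5 fell, against 19.8% and 19.4% of all genes. GPC3, a cell surface proteoglycan of liver cancer, was at 379, 297 and 291 TPM under vehicle, against 1920, 1879 and 1785 TPM under JQ1 (2.53). PEG10 was at 131, 70.7 and 103 TPM under vehicle, against 1022, 869 and 359 TPM under JQ1 (2.78), whereas H19 fell by 1.36 and the trefoil peptide TFF1 by 3.58. GLUL, glutamine synthetase and a Wnt target in liver, rose by 1.18. The polyamine breakdown enzyme SAT1 rose by 1.92, from 63.3, 89.1 and 66.6 TPM to 359, 353 and 164 TPM. Among the 57 chromatin modifiers tested 9 rose (15 without vehicle replicate 1) and 6 fell, and among 38 genes of the transcription machinery 4 rose and 5 fell, shares below those over all genes with every library kept. In the latter list 1 rose without JQ1 replicate 1 or 2 or vehicle replicate 2 or 3. Chromatin genes called included the arginine methyltransferase PRMT5 (-1.30), the acetyltransferase KAT2A (-1.33) and the deacetylase HDAC6 (1.30).

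**Figure D4:**
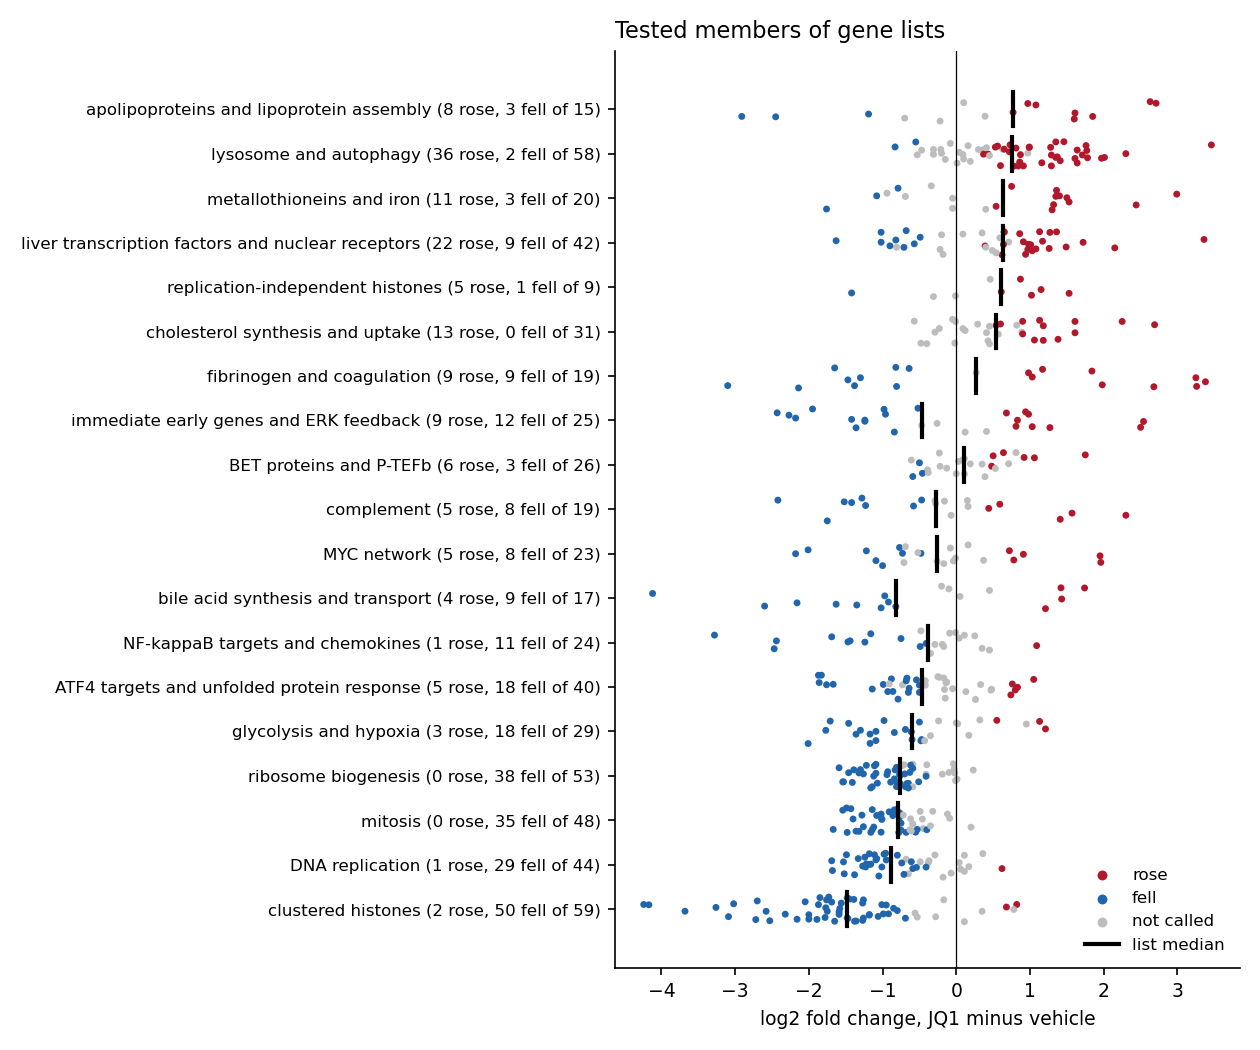
log2 fold change of every tested member of 19 gene lists (points; red rose, blue fell, grey not called) with the list median (black bar) and the counts called beside each name. Clustered histones, replication, mitosis and ribosome biogenesis lie left of 0 and the lysosome, lipoprotein and metal lists right of it.

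Further large changes were named by their size and not by a list. AMN, a partner of cubilin in vitamin B12 uptake, was at 2.85, 1.55 and 2.44 TPM under vehicle, against 31.7, 32.9 and 34.4 TPM under JQ1. It rose by 3.39 (adjusted p = 4.47e-06) and the solute carrier SLC45A3 by 2.90. NPIPA7, one of many near-identical copies on chromosome 16, had a fitted rise of 2.95 that is uncertain for that reason. The neuropeptide galanin, GAL, was at 21.2, 14.8 and 18.2 TPM under vehicle, against 0.624, 0.658 and 0.513 TPM under JQ1, and fell by 3.56. MEP1A, a membrane metalloprotease, fell by 3.46, NAT8 by 3.53 and SNORD124 by 3.51. Measured by TPM rather than fold, the tubulin gene TUBA1B had one of the 10 largest falls among protein-coding genes, from 1749, 1744 and 1628 TPM to 613, 644 and 649 TPM. RPSA (-0.84) and RPL9 (-0.90), of the ribosome, and the chaperone HSPA8 (-0.81) also fell at high levels, as did HIST1H3B (-1.38), HIST2H4B (-1.26), HIST2H3A (-1.45) and HIST1H4B (-1.47).

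MicroRNA symbols are levels of short transcripts in a total RNA library, not of the mature molecule. Of 306 tested 21 rose (6.86%) and 16 fell (5.23%), below the share among all genes. MIR301B, on chromosome 22, was at 21.6, 26.7 and 19.6 TPM under vehicle and was listed at 0 in every JQ1 library. MIR1827, on chromosome 12, was at 9.64, 2.83 and 18.2 TPM under vehicle, against 78.8, 109 and 110 TPM under JQ1 (3.43, adjusted p = 0.00409; 0.0588 with an offset of 0.1). MIR3189 lies inside GDF15 on chromosome 19. It was at 127, 92.9 and 71.6 TPM under vehicle, against 24, 19 and 16.9 TPM under JQ1 (-2.20), and GDF15, a stress cytokine, fell by 0.99, from 11.2 to 5.16 TPM. Reads of the microRNA and of the gene around it may not be separable. GOLGA2P5, a pseudogene on chromosome 12 as is MIR1827, rose by 3.06. The mature sequences of these 3 loci from RefSeq (GRCh38.p14) follow, with the seed, bases 2 to 8, in capitals.
hsa-miR-301b-3p: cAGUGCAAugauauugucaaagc
hsa-miR-1827: uGAGGCAGuagauugaau
hsa-miR-3189-5p: uGCCCCAUcugugcccuggguagga
hsa-miR-3189-3p: cCCUUGGGucugaugggguag
No 2 of these 4 mature forms share a seed. MIR4284, MIR4663 and MIR6791 stood at 0 throughout the vehicle libraries but at 4.07 to 31.3 TPM in those of JQ1.

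Called genes were not spread evenly over the genome or over transcript types. There were 25 runs of at least 3 neighbouring tested protein-coding genes that all rose or all fell by at least 2-fold. They included the fibrinogen genes, 3 histone runs on chromosome 6, MT1F, MT1G and MT1X, and SERPINF2 beside SERPINF1 and WDR81. By at least 2-fold 7.16% of all tested genes rose and 7.69% fell, and the number of runs under a random gene order was not tested. Neighbours are next to each other among tested genes only, so some lie far apart: S100A11 ends at 152037004 and S100A9 starts at 153357854. On chromosome 1, S100A11, S100A9, S100A6, S100A4 and S100A16, small calcium-binding proteins, all fell. S100A11 was at 111, 38.2 and 92.3 TPM under vehicle, against 20.4, 23.3 and 21 TPM under JQ1 (-1.72), S100A9 was at 9.19, 11.7 and 6.68 TPM with vehicle and was listed at 0 in every JQ1 library, and S100A10, beside S100A11 on its other side, rose by 1.25. HOXB7, HOXB9 and HOXB13 fell by 1.43, 1.31 and 1.15, and CFI, GAR1, EGF and ELOVL6 formed a falling run on chromosome 4. ELOVL6 lost its call with no filter (adjusted p = 0.0621) and without JQ1 replicate 2 or 3 or any vehicle library (adjusted p = 0.0518 to 0.0845). On chromosome 6, 29.3% of tested genes fell, and on chromosome 22, 33.7% rose. By transcript GC content, the share of genes that rose went from 5.21% in the lowest of 5 equal bins (up to 42.3% GC) to 36.4% in the highest (over 58.4%), while the share that fell stayed at 17.1 to 21.9%. By level, 34.5% of genes over 100 TPM fell, against 16.7% to 21% of genes under 50 TPM. By gene span, 27.2% of protein-coding genes in the shortest of 5 equal bins fell and 14.4% in the longest.

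JQ1 was also compared with FIDAS-5 directly. The compounds are not analogs, differ in target and dose, and share the vehicle libraries, so the values are given side by side. Between the treated groups 2209 genes were higher with JQ1 (16.9%) and 2236 lower (17.1%) in the fit without a replicate block. With the block these counts were 2460 and 2341. In the interferon and antigen presentation list 18 of 28 genes were lower with JQ1 than with FIDAS-5 and none higher. In the NF-kappaB list 15 of 24 were lower and none higher, and in the ATF4 and unfolded protein list 20 of 40 were lower and 1 higher. With the replicate number as a block, 17, 15 and 24 genes of these lists were lower with JQ1. Against vehicle, 18, 13 and 9 genes of these lists rose with FIDAS-5 and none fell. Their medians were 1.01, 0.46 and 0.13 with FIDAS-5, and 0.02, -0.38 and -0.46 with JQ1. Some other lists moved the same way in both treated groups. With FIDAS-5, 41 of 44 replication and 42 of 48 mitosis genes fell, and 27 of 58 lysosome and autophagy genes rose and 1 fell. OAS1, a sensor of double-stranded RNA, was at 3.91, 4.49 and 3.62 TPM in vehicle, 0.172, 0.0422 and 0.152 TPM under JQ1 and 40.8, 33.4 and 40.6 TPM with FIDAS-5. GDF15 was at 12.2, 11.1 and 10.3 TPM in vehicle, 5.48, 4.7 and 5.31 TPM under JQ1 and 180, 142 and 179 TPM with FIDAS-5. For both genes the 3 groups were separate, with JQ1 lowest and FIDAS-5 highest. The trefoil gene TFF1 (0.578 against 112 TPM) and the acetyltransferase gene NAT8 (0.922 against 94.7 TPM) had the same order of means. Of 17 bile acid genes 11 were lower with JQ1 than with FIDAS-5 and 2 higher, among them NR0B2 (means of 1.41 and 18.9 TPM; vehicle 3.91 TPM). Of the 59 clustered histones 56 fell with FIDAS-5, and in the direct test 30 were higher with JQ1 than with FIDAS-5 and 10 lower. HIST1H4D, at 24.5 against 76.5 TPM, was among the latter. Of 9 replication-independent histones 6 were higher with JQ1, with H1FX at 41.1 against 7.28 TPM. PHLDA1 was at 13.8 TPM under JQ1 and 10.6 TPM with FIDAS-5, a difference that did not pass the test (0.37, adjusted p = 0.264).

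**Figure D5:**
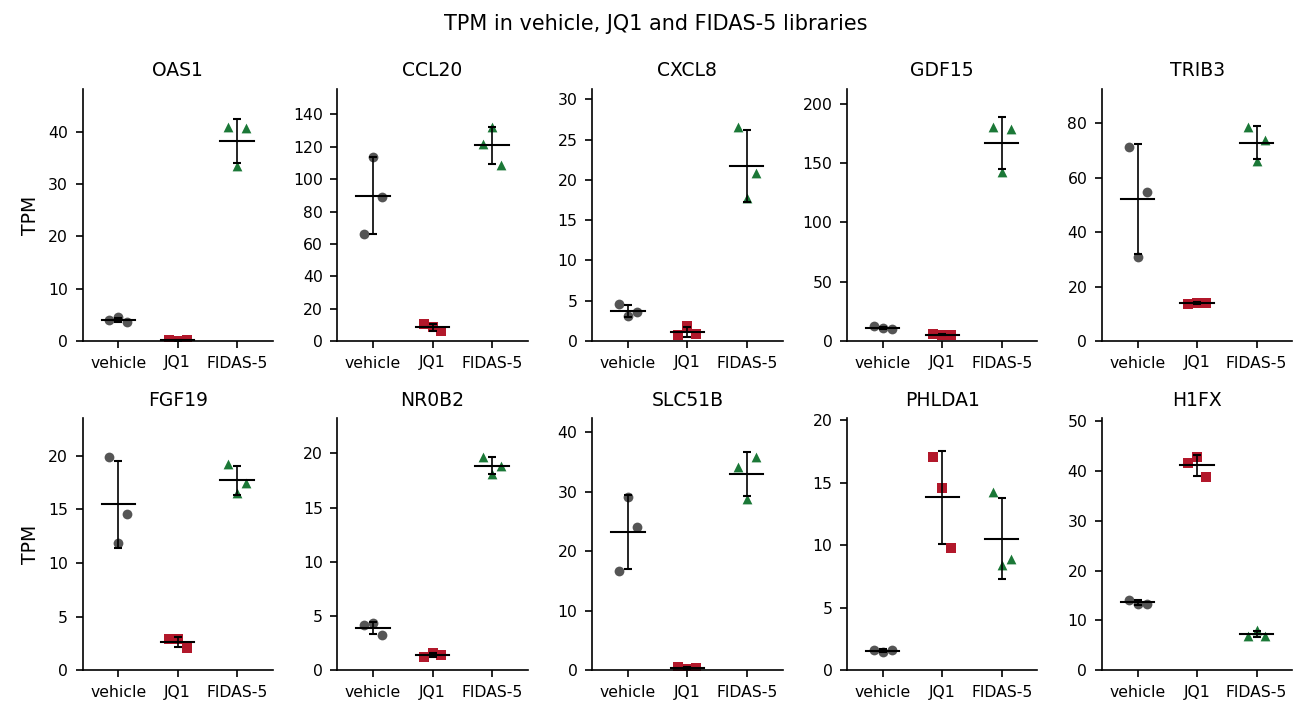
TPM of 10 genes in each vehicle (grey circles), JQ1 (red squares) and FIDAS-5 (green triangles) library, with group mean (line) and SD (bar, n = 3); each y axis starts at 0. OAS1, CXCL8, GDF15 and NR0B2 are lowest with JQ1 and highest with FIDAS-5, H1FX is highest with JQ1, and PHLDA1 is high in both treated groups.

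Genes of the methionine cycle, the pathway of the other compound's target, did not move one way with JQ1. Of 18 tested 5 rose and 6 fell (3 and 3 without vehicle replicate 3). MAT2A had a log2 fold change of -0.15, MAT2B of -0.54 and MAT1A of -0.02, and none of them was called, while CBS (-1.14) fell.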

How the data were processed

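Total RNA from Huh7 cells was sequenced by the study, and the authors deposited 1 table of gene-level TPM values for 9 libraries, made with Salmon against hg38, per the submitters' processing notes. The version of Salmon, its annotation and the depth of the libraries are not given in the sources used here. TPM is relative to the sum of each library, so a change in abundant small RNAs moves all other values, and counting precision cannot be derived. Libraries were grouped by their labels.

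Values were taken as log2(TPM + 1), which understates the change of low genes. A gene was tested when 3 or more of the 6 vehicle and JQ1 libraries gave it 1 TPM or more. Group means came from a limma 3.58.1 fit over the 9 libraries (R 4.3.3; eBayes without trend, residual df 6, prior df 2.97), and p-values were two-sided and Benjamini-Hochberg adjusted over all 13054 genes, with calls at 0.05. The procedure was tested on simulated data. Symbols were matched to RefSeq by name or synonym (26815 of 27800) for coordinates, transcript type and promoters. Transcript GC content and length were medians over the GENCODE transcripts of each gene name. A GC value was found for 12573 of the 13054 genes tested. Sequences were read from the RefSeq tables (GRCh38.p14), and motifs were searched on both strands of the 250 bases before the start. Figures were drawn with matplotlib 3.10.9 under Python 3.11.15.

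Genes named were all tested members of the BET and P-TEFb list and MYC, the 15 largest rises and falls among non-overlapping calls with a mean of at least 5 TPM, the 10 largest changes in TPM each way, up to 5 called members per list and direction, and neighbour runs. Others describe their list. The members, gene lists and named-gene rule were chosen with earlier results of these data known, and some genes' results are left unreported. Replicate numbers come from the labels. Deviations from group means of same-numbered JQ1 and FIDAS-5 libraries correlated at 0.301, 0.127 and 0.469 over genes. JQ1 replicate 2 correlated more, at 0.191, with FIDAS-5 replicate 1. The numbers were taken as pairing those libraries on the data's evidence alone, as the labels state no pairing. The part of the GC departures given above in these correlations was not tested. Same-numbered vehicle and JQ1 libraries gave no such values. Alternatives covered the offset, filter, scaling, libraries, replicate block, GC content and moderation.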

Additional observations from a re-analysis of the deposited data

How the results depend on the processing

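The 2580 genes that rose and 2526 that fell were recounted under 21 alternatives. Single libraries left out gave 1819 to 3128 that rose and 1909 to 2503 that fell, and without JQ1 replicate 3 the median over all genes moved to 0.13. The other alternatives gave between 1723 (filter at 5 TPM) and 3591 (replicate block with GC trend removed) that rose, and between 1737 and 3691 that fell under the same settings. With a 2-fold minimum 935 rose and 1004 fell. No gene called under both the reported settings and an alternative changed direction. Between JQ1 and FIDAS-5, 4445 genes were called, 2692 with the filter at 5 TPM and 6854 with the replicate block and GC trend removed. The stricter filter leaves fewer genes to test, and the cause of the other move was not tested.

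Of 9274 values of named genes under the alternatives, 8972 kept their direction and side of the threshold, 274 lost a call, 28 gained one and none reversed, and 375 of 428 called genes were called throughout. Deviations of same-numbered vehicle and JQ1 libraries correlated at -0.089, 0.039 and -0.014, so the numbers gave no sign of pairing these groups. As a replicate block they gave 2751 genes that rose and 2720 that fell. Between JQ1 and FIDAS-5, where the numbers were taken as pairing the libraries, the block gave 4801 called genes. It changed no call of a gene named in that comparison, but moved the counts of the interferon and ATF4 lists. TPM keeps no depth, so low genes and short RNAs carry an unknown counting error.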
